A study of Mus musculus with 4 samples.

Results

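The genes described here are named for proteins of the mitochondrial ribosome. They were measured in Hepa1c1c7, a mouse hepatoma cell line, after exposure to diethyl maleate (DEM). The set was chosen with earlier results of these data known. Its members were taken by name, as every gene on the array with a RefSeq symbol of Mrpl or Mrps followed by a digit and no pseudogene suffix. This gave 78 genes of the 15537 tested. Of them 49 were named for the large subunit (Mrpl) and 29 for the small subunit (Mrps). Mrps36 was kept by name, although its product is now known as part of another complex, as given below. All 78 were well above background on all 4 arrays, so no gene of the set was lost to the filter on dim probes.

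The 2 DEM samples were RNA of cells kept for 6 hours in 100 µM DEM, and the 2 DMSO samples RNA of cells kept as long in the solvent dimethyl sulfoxide. All were of the same line, with no genetic change named in the labels, and each RNA was labelled with Cy3 and hybridised alone to an Agilent mouse array. DEM is an electrophile that reacts with glutathione, and the series title describes it as an activator of NRF2, the transcription factor of the antioxidant response. The series calls the RNA samples of a group independent without naming separate cultures or dates. The p-values therefore rest on a spread between samples that may be technical alone.

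The mitochondrial ribosome translates the few mRNAs of the mitochondrial genome, which encode membrane subunits of the respiratory chain and of ATP synthase. Its rRNAs are made inside the organelle, whereas its proteins are encoded in the nucleus, translated in the cytosol and imported. Some have counterparts in the bacterial ribosome and others were acquired in the mitochondrial lineage. Hepatocytes are rich in mitochondria, and the line derives from a liver tumour.

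Promoter sequences are shown for the genes on which the comparison turns, which are Mrpl14 and Mrpl47, with the largest positive and the largest negative difference, and the Mrps18 paralogs, whose products share an ancestor. Each is the window of 250 bases directly before the annotated gene start, from RefSeq on GRCm38.p6, written 5′ to 3′ on the strand of the gene. Capitals mark matches, on either strand, to 6 short motifs: CGCATGCG for NRF1, CCGGAAG for the ETS core, AAGATGGC for YY1, GGGCGG for the GC box of SP1, TGACNNNGC for the antioxidant response core that NRF2 binds, and CACGTG for the E-box. The Mrpl14 window lies at chr17:45686099-45686348 on the plus strand and held 4 GC boxes, and the Mrpl47 window at chr3:32736756-32737005 on the minus strand held none of the 6 motifs. The Mrps18a window at chr17:46110754-46111003 on the plus strand held an ETS core. The Mrps18b window at chr17:35916441-35916690 on the minus strand held an NRF1 motif and 2 GC boxes. The Mrps18c window at chr5:100798509-100798758 on the plus strand held an antioxidant response core, an E-box and an ETS core.
Mrpl14: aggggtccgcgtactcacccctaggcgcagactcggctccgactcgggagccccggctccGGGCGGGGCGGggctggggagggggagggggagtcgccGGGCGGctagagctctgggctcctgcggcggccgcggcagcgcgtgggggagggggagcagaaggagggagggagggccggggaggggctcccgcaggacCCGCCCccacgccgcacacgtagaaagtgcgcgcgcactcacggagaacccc
Mrpl47: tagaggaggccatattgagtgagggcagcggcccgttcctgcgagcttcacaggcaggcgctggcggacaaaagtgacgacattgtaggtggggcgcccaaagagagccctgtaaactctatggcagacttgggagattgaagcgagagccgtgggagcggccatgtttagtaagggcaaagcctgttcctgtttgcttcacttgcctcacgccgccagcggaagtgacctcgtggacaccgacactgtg
Mrps18a: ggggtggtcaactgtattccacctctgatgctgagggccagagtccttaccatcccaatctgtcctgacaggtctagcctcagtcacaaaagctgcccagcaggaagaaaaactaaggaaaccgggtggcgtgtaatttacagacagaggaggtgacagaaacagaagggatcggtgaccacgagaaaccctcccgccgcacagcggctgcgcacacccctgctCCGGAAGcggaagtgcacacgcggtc
Mrps18b: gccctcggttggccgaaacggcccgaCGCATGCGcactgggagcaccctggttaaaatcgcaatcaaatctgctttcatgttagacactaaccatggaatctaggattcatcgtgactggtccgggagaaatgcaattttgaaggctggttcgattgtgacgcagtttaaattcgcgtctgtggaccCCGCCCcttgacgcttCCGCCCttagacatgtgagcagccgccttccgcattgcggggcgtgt
Mrps18c: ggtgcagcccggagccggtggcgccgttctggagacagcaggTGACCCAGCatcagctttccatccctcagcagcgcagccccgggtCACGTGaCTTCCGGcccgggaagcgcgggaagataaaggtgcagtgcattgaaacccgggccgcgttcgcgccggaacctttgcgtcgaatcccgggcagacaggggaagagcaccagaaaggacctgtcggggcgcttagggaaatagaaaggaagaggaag

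The array responded to the exposure. Hmox1, the heme oxygenase, and Nqo1, a quinone reductase, are standard NRF2 targets. On the log2 scale, relative to the 75th percentile of each array, Hmox1 stood at 7.98 and 8.15 in the DEM samples, against 3.63 and 3.40 in the DMSO samples, a rise of 4.55 ± 0.13 (SE, n = 2 each, limma adjusted p = 0.00442). Nqo1 rose by 2.35 ± 0.10 (SE, limma adjusted p = 0.0125). Between 50.4% and 52.6% of the 41174 probes were well above background per array, and the number of arrays limits the precision. Of 13 liver markers 8 were tested, and of the leukocyte, stellate and endothelial lists 2 of 5, 3 of 4 and 1 of 4. Mean DMSO levels of the liver markers ran from -6.21 for Apob and -3.77 for Apoa2 to 8.69 for Krt8, with Alb at 3.92 and Afp at 6.72. Ttr, Hnf4a and Apoa1 were on the array but were not tested. In the other lists Col1a1 stood at 6.22, Pdgfrb at 1.86, Cd14 at 1.69, Csf1r at 1.12, Lyve1 at -3.13 and Des at -4.36. The cell type is therefore taken from the labels.

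Across the mitochondrial ribosomal protein genes the difference between DEM and DMSO cells was small. None of the 78 passed an adjusted p of 0.05 in limma (Benjamini-Hochberg over all genes), against 1.22% of all genes tested (0.714% higher and 0.508% lower in DEM cells). At an unadjusted p under 0.05 there were 3, namely Mrpl14 with a positive difference and Mrpl47 and Mrpl44 with a negative one, against 19.2% of all genes (9.02% higher and 10.2% lower in DEM cells). The median log2 change, DEM minus DMSO, was -0.0044 for the 78 genes and -0.0061 for all genes tested. Of the 78 differences 37 were positive and 41 negative, with quartiles at -0.07 and 0.05. Under array median scaling the median of the set was 0.141, with all genes at 0.139, and under quantile normalization the set was at -0.048, with all genes at -0.00857. The sign of the set's median thus depended on the scaling.

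The values lay close together. The SD of the 78 log2 changes was 0.123, against 0.388 over all genes and 0.240 over the 6129 genes whose mean level fell in the same range. Beyond 0.3 in either direction lay 1 of the 78 genes (1.28%), against 23.9% of all genes and 11.3% of those in the same range of mean level, and beyond 0.1 lay 23 of the 78 (29.5%), against 62.8%. The proteins of the cytosolic ribosome, the separate machine that translates nuclear mRNAs, had a smaller SD still, 0.060 over the 81 genes tested, with a median of -0.02 and no call. The genes of either ribosome were taken by name, but the sets were chosen with earlier results of these data known. These figures therefore describe the sets and carry no test.

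The precision of each difference can be read from its interval. The median standard error of the 78 differences was 0.097 on the log2 scale. The 95% confidence interval excluded a 2-fold change in either direction for all 78 genes, and for 71 of them the whole interval lay between -0.5 and 0.5. In 25 of the 78 genes the DEM and DMSO samples did not overlap, with DEM above in 13 and below in 12, which is 32.1% of the set against 50.6% of all genes tested (24.9% above and 25.6% below). With 2 arrays a group, small differences could go undetected, and so could some whose whole interval was positive or negative. Mrpl14, at 0.56 with an interval from 0.32 to 0.80, had a limma adjusted p of 0.0797.

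**Figure D1:**
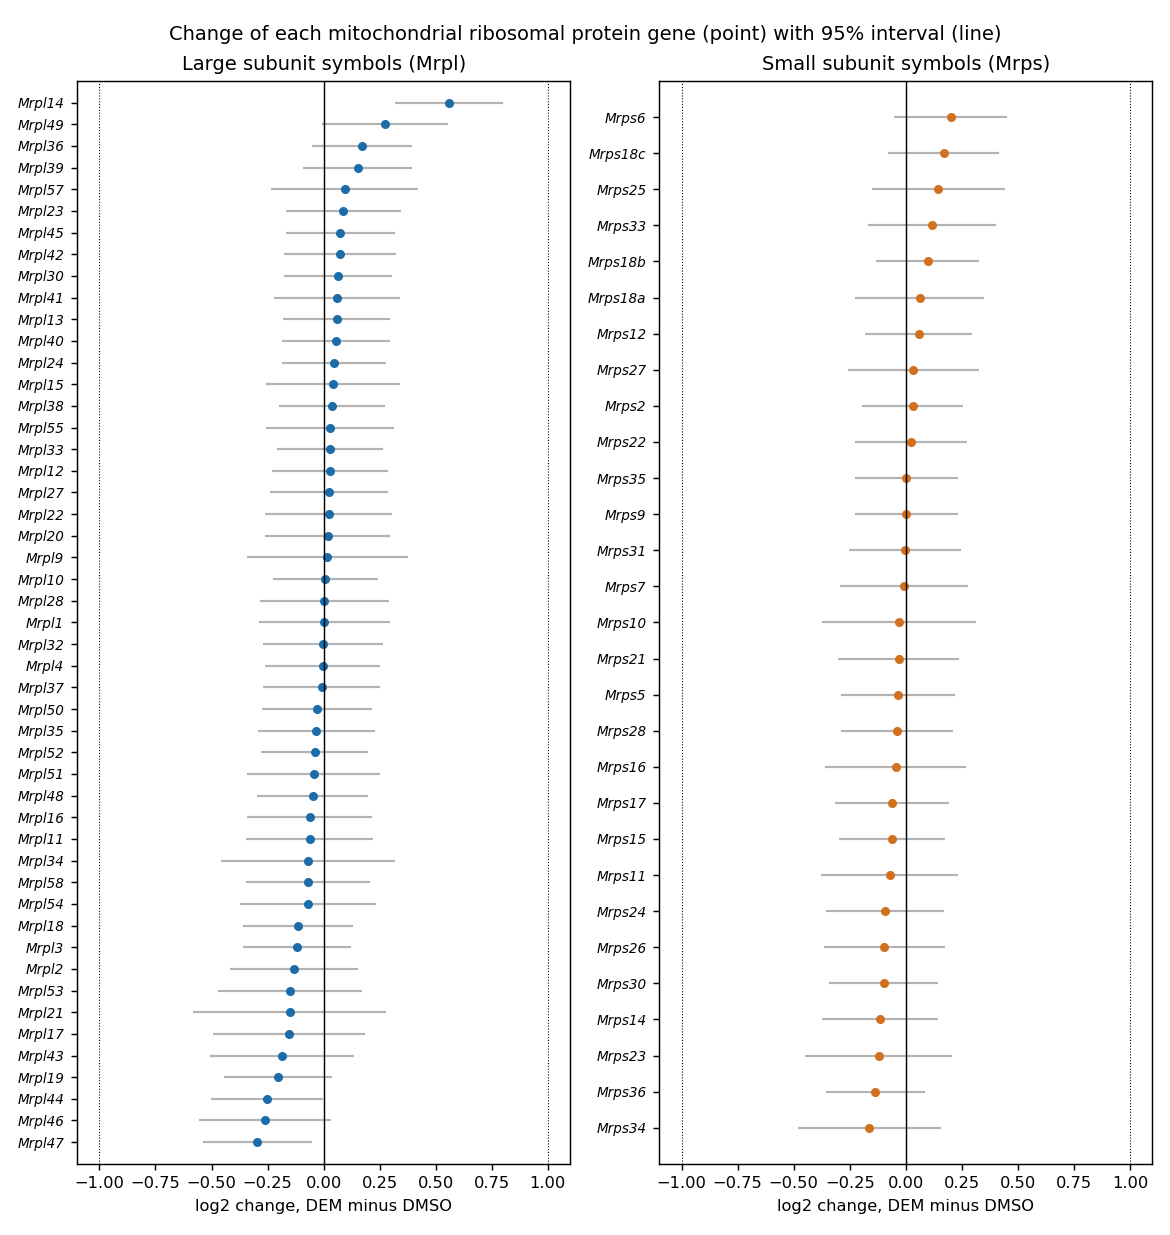
Log2 change (DEM minus DMSO) of each of the 49 Mrpl and 29 Mrps genes, with the 95% confidence interval from limma as a line and dotted lines at a 2-fold change. Mrpl14 stands alone at 0.56, and the other 77 genes lie between -0.30 and 0.27.

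Mrpl14 had the largest difference of the set. Its product is a conserved protein of the face of the large subunit that meets the small one, and it binds the assembly factor Malsu1. The processed signals were 42800 and 41500 in the DEM samples, against 29400 and 26300 in the DMSO samples. On the normalised log2 scale these were 6.29 and 6.30 in DEM cells and 5.79 and 5.68 in DMSO cells. The groups were apart, and each was tight within itself compared with the gap between them. The difference was 0.56 ± 0.09 (SE, n = 2 each), a fold of 1.47 with a 95% interval from 0.32 to 0.80 on the log2 scale, and its limma adjusted p was 0.0797. It ranked 584 among 15537 genes by log2 change. The call depended on the setting: with normexp background correction the limma adjusted p was 0.0407, with array median scaling 0.0453, with an intensity trend 0.0071 and with trend and robust fitting 0.00273, while over all 16 alternatives it ran from 0.00273 to 0.608. The gene has 1 probe on the array, so no second probe measured it.

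Tmem63b, a membrane protein gene, is annotated as overlapping Mrpl14. It stood at 1.35 in both DEM samples, against 1.12 and 1.05 in the DMSO samples, a difference of 0.27 ± 0.09 (SE, limma adjusted p = 0.214). Its part in the Mrpl14 value was not tested. Malsu1 itself differed by 0.08 ± 0.09 (SE, limma adjusted p = 0.707).

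Among the other large-subunit genes with positive differences, Mrpl49 came next. Its product has no bacterial counterpart. It stood at 4.23 and 4.08 in DEM cells, against 3.94 and 3.83 in DMSO cells, a difference of 0.27 ± 0.10 (SE, limma adjusted p = 0.268). The groups did not overlap, but the other probes of Mrpl49 gave 0.18 and 0.07. Mrpl36, whose bacterial counterpart is one of the smallest ribosomal proteins, stood at 5.49 and 5.46 in DEM cells and at 5.30 and 5.31 in DMSO cells (difference 0.17 ± 0.08 SE, limma adjusted p = 0.357). Here the DEM samples agreed closely, as did the DMSO samples. Mrpl39 differed by 0.15 (limma adjusted p = 0.447) and Mrpl57 by 0.09, with overlapping groups for Mrpl57.

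The most negative differences were also in the large subunit. Mrpl47, the counterpart of the bacterial protein that lies by the exit of the peptide tunnel, stood at 1.93 and 2.03 in DEM cells, against 2.29 and 2.26 in DMSO cells. The groups did not overlap, and the difference was -0.30 ± 0.09 (SE, n = 2 each), a fold of 0.814 with a 95% interval from -0.54 to -0.05 and a limma adjusted p of 0.201. Mrpl46, a mitochondrial addition to the ribosome, stood at 2.32 and 2.23 in DEM cells and at 2.63 and 2.44 in DMSO cells (difference -0.26 ± 0.11 SE, limma adjusted p = 0.302). Its DMSO samples were farther apart from each other than the lower of them was from the nearer DEM sample. Mrpl47 and Mrpl46 each have 1 probe on the array.

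Mrpl44 carries a ribonuclease III fold. It stood at 3.35 and 3.32 in DEM cells, against 3.65 and 3.52 in DMSO cells, a difference of -0.25 ± 0.09 (SE, limma adjusted p = 0.259). The groups did not overlap, and the other probes of Mrpl44 gave -0.30 and -0.35, so all its probes had the same sign. Mrpl19, a conserved protein of the subunit interface, stood at 1.42 and 1.36 in DEM cells and at 1.64 and 1.56 in DMSO cells (difference -0.20 ± 0.09 SE, limma adjusted p = 0.315). Mrpl43 differed by -0.18 (limma adjusted p = 0.485), and its other probe by -0.11.

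**Figure D2:**
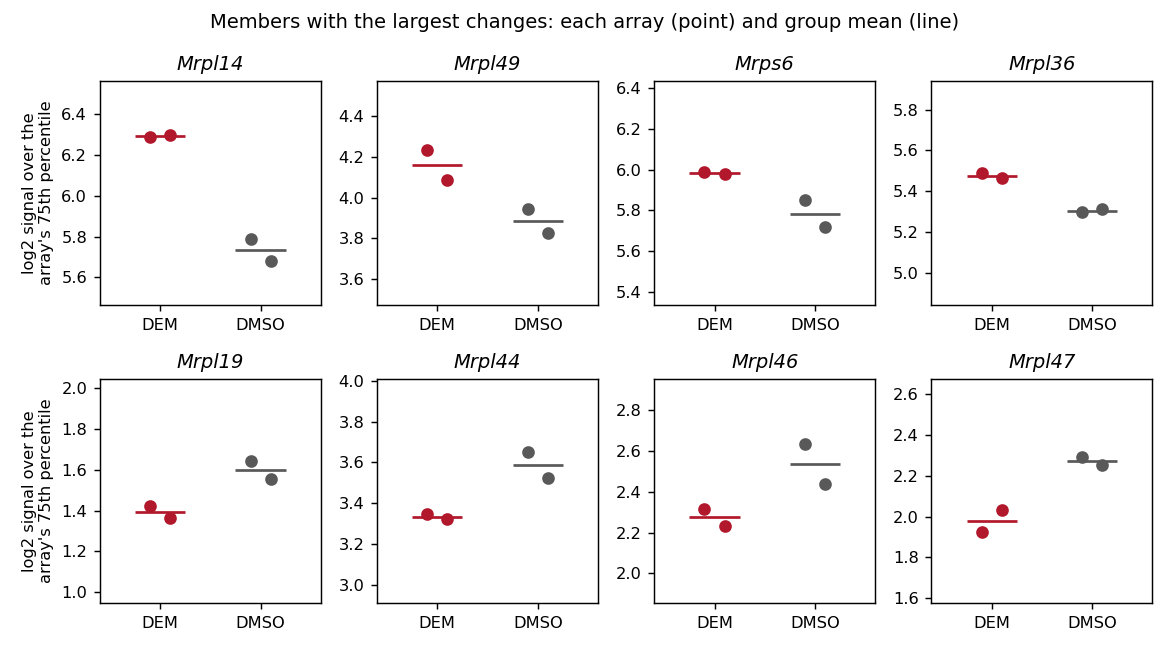
Level on each array (log2 relative to the 75th percentile of the array) of 8 genes. Those with the largest positive differences are above and those with the largest negative differences below. Each array is a point and the group mean a line, with DEM left of DMSO. For Mrpl14 both DEM samples, at 6.29 and 6.30, lie above the DMSO samples at 5.79 and 5.68.

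The stalk of the large subunit, which recruits translation factors, showed no comparable difference. Mrpl12, its multicopy factor-binding protein, stood at 5.45 and 5.48 in DEM cells and at 5.51 and 5.37 in DMSO cells (difference 0.03). Mrpl10, on which Mrpl12 sits, differed by 0.01, and Mrpl11, at the stalk base, by -0.06, with overlapping groups for all of them. Scaling changed these signs: Mrpl12 and Mrpl10 were negative under spike-in scaling and quantile normalization, and Mrpl11 was positive under array median scaling. Mrpl58, a peptidyl-tRNA hydrolase that frees stalled peptides, stood at 5.25 and 5.18 in DEM cells and at 5.37 and 5.20 in DMSO cells (difference -0.07, positive under array median scaling).

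In the small subunit the differences ran from -0.16 for Mrps34 to 0.20 for Mrps6. None of the 29 genes reached an unadjusted p of 0.05 in limma, against 19.2% of all genes tested. Mrps6, a conserved protein of the platform side, stood at 5.99 and 5.98 in DEM cells, against 5.85 and 5.72 in DMSO cells (difference 0.20 ± 0.09 SE, limma adjusted p = 0.344). The groups did not overlap, and a further probe gave 0.21. Slc5a3, an inositol transporter gene annotated as overlapping Mrps6, differed by -0.31 (limma adjusted p = 0.428), opposite in sign. Mrps25 differed by 0.14 and Mrps33 by 0.12, and the groups overlapped for Mrps25.

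On the negative side, Mrps34 stood at 4.90 and 4.70 in DEM cells and at 5.04 and 4.88 in DMSO cells (difference -0.16, limma adjusted p = 0.536), with overlapping groups. Mrps36 stood at 2.89 and 2.88 in DEM cells, against 3.03 and 3.01 in DMSO cells, without overlap (difference -0.14 ± 0.08 SE, limma adjusted p = 0.453, positive under array median scaling). Despite its symbol, the product of Mrps36 is now known as a component of the 2-oxoglutarate dehydrogenase complex. Mrps14 and Mrps23 each differed by -0.12, and both were positive under array median scaling. Of the functional centres, Mrps12 at the decoding site differed by 0.06 (negative under spike-in scaling) and Mrps7 in the head by -0.01 (positive under array median scaling).

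The Mrps18 paralogs encode related proteins that occupy different places, that of Mrps18a in the large subunit and those of Mrps18b and Mrps18c in the small. Mrps18c stood at 3.22 and 3.23 in DEM cells, against 3.12 and 3.0 in DMSO cells, without overlap (difference 0.17 ± 0.09 SE, limma adjusted p = 0.407). Mrps18b stood at 1.80 and 1.87 in DEM cells and at 1.73 and 1.75 in DMSO cells (difference 0.10). Mrps18a overlapped between the groups, at 3.05 and 3.15 in DEM cells and at 3.12 and 2.95 in DMSO cells (difference 0.06, negative under spike-in scaling). The promoter windows of the paralogs, shown above, shared the ETS core between Mrps18a and Mrps18c alone. Mrps30, whose product also sits in the large subunit, differed by -0.10 (positive under array median scaling).

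The large and small subunits were set side by side. The median log2 change was 0.0023 for the 49 Mrpl genes and -0.03 for the 29 Mrps genes. The difference in medians, Mrpl minus Mrps, was 0.03, against an SD between replicates of 0.0205 for that quantity, and it was -0.0429 under normexp background correction. Counting Mrps30 and Mrps18a as large and leaving Mrps36 out gave 0.0023 for 51 genes and -0.02 for 26. The Mrpl changes were the wider, with an SD of 0.139 against 0.093 for Mrps, and 0.112 for Mrpl without Mrpl14. DEM and DMSO samples did not overlap in 14 of 49 Mrpl genes, of which 7 had DEM above, and in 11 of 29 Mrps genes, of which 6 had DEM above. These are 28.6% of Mrpl and 37.9% of Mrps genes, against 50.6% of all genes tested (24.9% above and 25.6% below). No test of a difference between the subunits was made.

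A division by origin gave medians close to 0 as well. The Mrpl genes with a bacterial counterpart (30) had a median of 0.0056 and those without (19) of -0.03. The Mrps genes with a bacterial counterpart (16) had a median of -0.03 and those without (13) of 0.0023.

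The DMSO replicates differed from each other in 1 direction for most of these genes. DMSO replicate 1 lay above DMSO replicate 2 in 71 of the 78 genes (91.0%), against 59.0% of all genes and 70.4% of the genes in the same range of mean level. The order was shared by related lists, with DMSO 1 above DMSO 2 in 5 of 5 other mitoribosomal proteins, 88.2% of mitochondrial translation factors, 86.4% of assembly factors, 82.4% of mitochondrial synthetases and 77.8% of cytosolic ribosomal proteins. It was less frequent, at 71.4%, in the regulators of mitochondrial transcription and biogenesis. Outside these lists it held in 8 of 8 tested liver, 2 of 2 leukocyte, 1 of 1 endothelial and 1 of 3 stellate markers. The median difference, DMSO 1 minus DMSO 2, was 0.143 for the set and 0.042 for all genes. The DEM samples were closer, with DEM 1 above DEM 2 in 49 of 78 genes and a median difference of 0.02. Centred on each gene's own mean over the 4 arrays, the medians of the set were 0.0033 in DEM 1, -0.01 in DEM 2, 0.08 in DMSO 1 and -0.06 in DMSO 2. Both DEM samples thus lay between the DMSO samples. Mrpl and Mrps genes had the same order of arrays for the DMSO samples, at 0.08 and -0.07 for Mrpl and at 0.08 and -0.05 for Mrps. Without DMSO replicate 2 the median log2 change of the set was -0.08, and without DMSO replicate 1 it was 0.0513.

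**Figure D3:**
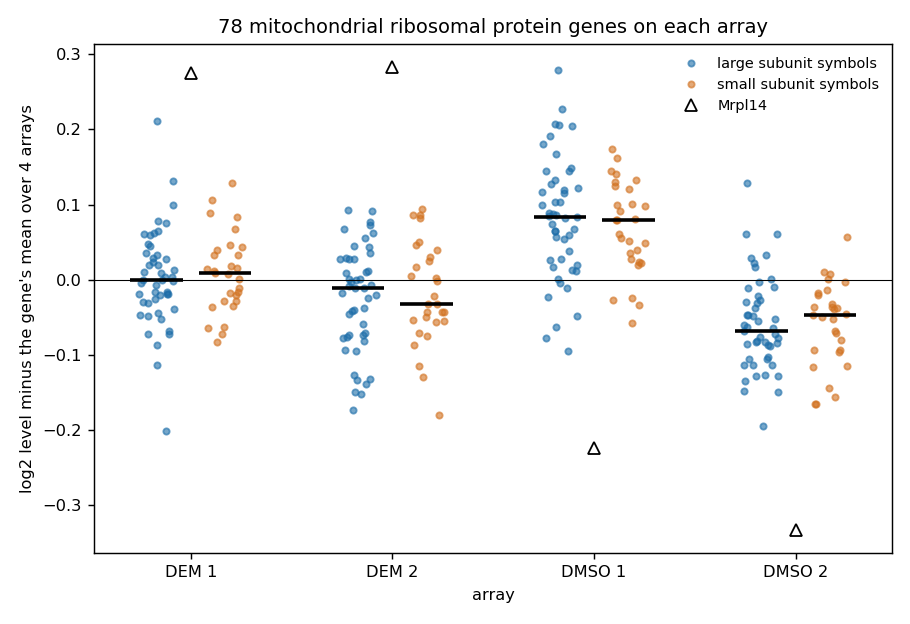
Level of each gene on each array, centred on its mean over the 4 arrays (log2), by subunit, with the subunit median as a bar and Mrpl14 as a triangle. The DMSO 1 medians lie at 0.08 for both subunits and the DMSO 2 medians below 0, with the DEM medians between them.

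Several probes allowed a check within genes. The array held 115 probes for the 78 genes, of which 114 were tested, and 27 genes had more than 1 tested probe. For 50 genes the array held 1 probe, so no second probe measured them. Among these were Mrpl14, Mrpl36, Mrpl39, Mrpl19, Mrpl46 and Mrpl47. The sign of the difference was the same for all probes in 20 of the 27 genes with several tested probes. The median range between probes of a gene was 0.066 on the log2 scale. The widest range was for Mrps2, with 0.03 from the probe used and -0.28 from the other. Mrpl35 had a range of 0.268 with opposite signs.

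Of the 78 genes 25 overlap another annotated gene, and 18 of these partners were tested. The sign of the difference was that of the overlapped gene for 10 of the 18 and the opposite for 8. Wdfy1, a phosphoinositide-binding protein gene that overlaps Mrpl44, differed by -0.22 (limma adjusted p = 0.285), and Syvn1, an E3 ligase of the endoplasmic reticulum that overlaps Mrpl49, by 0.22 (limma adjusted p = 0.28). Ighmbp2, a helicase gene overlapping Mrpl21, differed by -0.46 (limma adjusted p = 0.181), beside -0.15 for Mrpl21. Opposite signs were seen for Rrnad1, which differed by -0.34 (limma adjusted p = 0.205), beside 0.05 for Mrpl24, and for Rab6a, a Golgi GTPase gene, which differed by 0.21 (limma adjusted p = 0.319), beside -0.05 for Mrpl48. The part of the partners in these values was not tested.

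Promoter windows were found for 69 of the 78 genes, as 75 windows, since some genes have more than 1. They were searched for the motifs above, beside all 32851 RefSeq windows of the same length. The NRF1 motif was in 9.3% of the members' windows, against 1.5% of all windows, the ETS core in 24% against 6.9%, and the YY1 motif in 5.3% against 1.6%. The GC box was in 49.3% against 32.7%, the antioxidant response core in 14.7% against 10.2%, and the E-box in 9.3% against 6.0%. Windows of 1 gene can overlap, as those of Mrpl2 do, so its E-box and GC boxes were counted more than once. Counted by gene, the E-box was in 5 of the 69 and the GC box in 33. The share over all windows was not counted by gene. The factors named NRF1 and the GA-binding protein of the ETS family are known regulators of nuclear genes for mitochondrial proteins. A match of letters is not a binding site.

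The presence of a motif went with little difference in the response. The 11 genes with an antioxidant response core had a median log2 change of -0.03, against 0.0017 for those without it. The 7 genes with the NRF1 motif had a median of 0.02, against -0.02 without, and the 18 genes with the ETS core had -0.05, against 0.0023 without. For the GC box it was -0.0093 in 33 genes with it, Mrpl14 among them, and 0.0056 in 36 without. The 4 genes with the YY1 motif had 0.0275, against -0.0079 without, and the 5 with the E-box had 0.0184, against -0.0062 without. The windows were set beside the changes as a description, with no test.

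The other parts of the mitochondrial translation system were described from lists that fixed their members by function. No gene of these lists passed an adjusted p of 0.05 in limma, against 1.22% of all genes. Of 5 further mitoribosomal proteins outside the Mrpl and Mrps symbols, none reached an unadjusted p of 0.05, against 19.2% of all genes. Their median log2 change was -0.05. Ptcd3, an RNA-binding protein of the small subunit, differed by -0.08.

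The assembly factors and rRNA-modifying enzymes had the lowest median of these lists, -0.11 over 22 tested genes, with an SD of 0.264. At an unadjusted p under 0.05, 2 were positive and 5 negative, where 9.02% of all genes were higher and 10.2% lower at that threshold. Mettl15, a methyltransferase of the small-subunit rRNA, stood at -0.80 and -0.81 in DEM cells, against -1.32 and -1.52 in DMSO cells, a difference of 0.62 ± 0.11 (SE, limma adjusted p = 0.0855). The RNA helicase Ddx28 stood at 1.21 and 0.86 in DEM cells and at 1.68 and 1.51 in DMSO cells (difference -0.56 ± 0.16 SE, limma adjusted p = 0.178). Its groups did not overlap, and the DEM samples were farther apart than the DMSO samples. The GTPase Noa1 differed by -0.36 (limma adjusted p = 0.142).

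Translation factors had a median of -0.0037 over 17 genes, and none reached an unadjusted p of 0.05, against 19.2% of all genes. Oxa1l, which inserts new proteins into the inner membrane, stood at 1.86 and 1.62 in DEM cells, against 2.27 and 1.99 in DMSO cells (difference -0.39 ± 0.15 SE, limma adjusted p = 0.27). The elongation factor Tufm differed by -0.07. The mitochondrial aminoacyl-tRNA synthetases, which charge tRNAs, had a median of -0.0053 over 17 genes. Fars2, for phenylalanine, stood at 0.35 and 0.36 in DEM cells and at 0.04 and -0.20 in DMSO cells (difference 0.44 ± 0.11 SE, limma adjusted p = 0.162). Sars2, for serine, stood at -0.23 and -0.22 in DEM cells and at 0.14 and 0.06 in DMSO cells (difference -0.33 ± 0.09 SE, limma adjusted p = 0.164). These were the 1 positive and the 1 negative synthetase at an unadjusted p under 0.05, against 19.2% of all genes, and in both the groups did not overlap.

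Among the regulators of mitochondrial transcription and biogenesis, with a median of 0.0095 over 14 tested genes, 3 were positive and 1 negative at an unadjusted p under 0.05, which 9.02% of all genes reached as higher and 10.2% as lower. Ppargc1b, a coactivator of mitochondrial biogenesis, stood at 0.0066 and -0.23 in DEM cells, against 0.75 and 0.65 in DMSO cells. The groups were well apart, with a difference of -0.81 ± 0.12 (SE, n = 2 each), a fold of 0.571 and a limma adjusted p of 0.0704. Gabpb1, a subunit of the GA-binding protein, differed by 0.38 (limma adjusted p = 0.125), Nrf1 by 0.27 (limma adjusted p = 0.21) and Yy1 by 0.27 (limma adjusted p = 0.239). Tfam, the mitochondrial DNA-packaging factor, differed by -0.16.

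**Figure D4:**
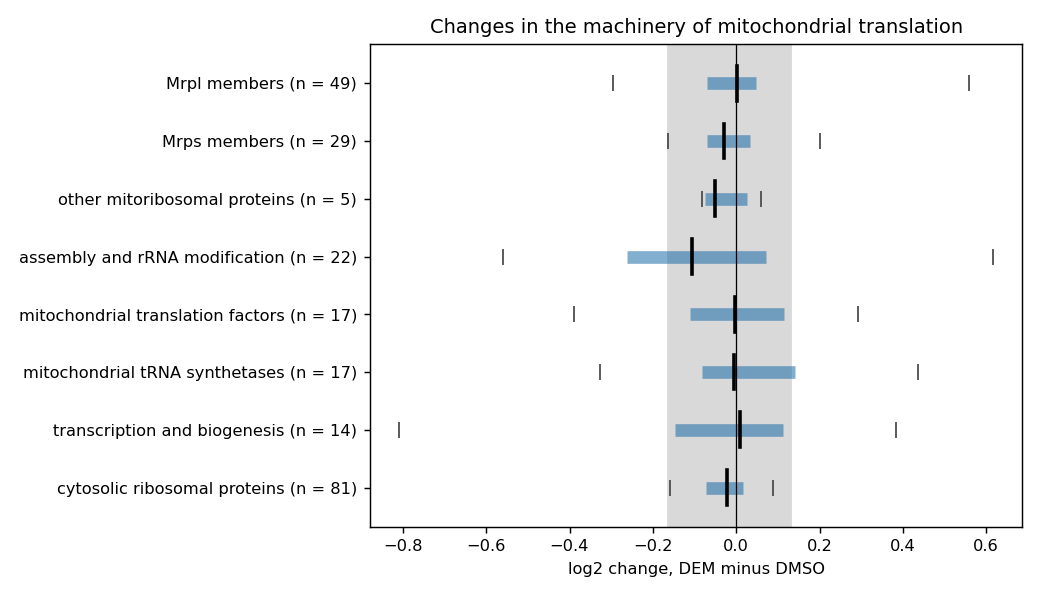
Log2 change (DEM minus DMSO) in the Mrpl and Mrps sets, the other lists of the mitochondrial translation system and the cytosolic ribosomal proteins, with thick marks for medians, boxes for quartiles, thin marks for the lowest and highest gene, and a grey band for the quartiles of all genes tested. Medians lie between -0.11 and 0.0095, and single genes outside the ribosomal sets reach -0.81 for Ppargc1b and 0.62 for Mettl15.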

How the data were processed

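Messenger RNA was measured on 4 single-colour arrays, with group and replicate number taken from the sample titles. The protocol for RNA extraction names liver tissue, whereas the other labels name the cell line. Per the file headers, the authors' deposited intensity values are the processed signals of Agilent Feature Extraction 10.7.3.1 (protocol GE1_107_Sep09, annotated on mm9), background-subtracted, linear and written to 3 significant digits. The deposited value table equalled this intensity at all 45018 spots of an array. All arrays lay on 1 slide with 1 scan time.

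From these, log2 of the processed signal minus the 75th percentile of the 43379 non-control spots of each array was taken, spots with an outlier flag were dropped and the spots of a probe were averaged. Probes had to be well above background on 2 or more arrays, and a gene took its brightest probe. Accessions were named through RefSeq (GRCm38.p6). DEM was compared with DMSO over 15537 genes by limma 3.58.1 (R 4.3.3, lmFit and eBayes); p-values were adjusted over all genes by Benjamini-Hochberg, at a threshold of 0.05. The fit was tested on simulated data, drawn from its own estimate of spread with independent noise. That simulation holds no shift shared by many genes of an array, so it does not check the fit under such shifts. Named genes are those called, the 5 largest positive and 5 largest negative differences of each subunit, the Mrps18 paralogs, Mrps30, Mrps36, the stalk genes, Mrps12, Mrps7 and Mrpl58, and the largest change of each other list. Genes named beyond this rule, among them Malsu1, Noa1, Ddx28, Sars2, Gabpb1, Tufm, Tfam and the overlapping partners, were chosen after their values were seen. The members and lists were chosen with earlier results of these data known. Alternatives covered background correction, scaling, filters, probe choice, the variance model, leaving out single arrays and a block for the replicate number. Normexp, with an offset of 50, used the median spot signal. No explanation of a difference was tested.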

Additional observations from a re-analysis of the deposited data

How the results depend on the processing

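None of the 16 alternatives called a gene of the set other than Mrpl14, and the count of called genes was 1 instead of 0 under normexp background correction, array median scaling, an intensity trend, and trend with robust fitting; leaving out any array gave 0. Over all genes the calls were 190, against 807 under normexp, 93 under quantile normalization, 567 under median scaling, 572 under spike-in scaling, 0 of 32288 without the filter, 426 with the filter on all arrays, 726 and 882 under trend and trend with robust fitting, and 121, 102, 0 and 0 without DEM 1, DEM 2, DMSO 1 and DMSO 2. Median scaling moved the median of all genes to 0.139 and spike-in scaling to -0.0807. With them the median log2 change of the set was 0.141 and -0.0791, of Mrpl 0.147 under median scaling, and of Mrps 0.116 and -0.104. Leaving out 1 array gave -0.08 to 0.0513 for the set, -0.0756 to 0.0669 for Mrpl, -0.0977 to 0.0394 for Mrps and 0.0013 to 0.0291 for Mrpl minus Mrps, which was -0.0429 under normexp. Signs of small differences turned under normexp (Mrps23 0.0624, Mrps18a -0.0227, Mrpl10 -0.0132, Mrps7 0.047), quantile normalization (Mrpl12 -0.000219, Mrpl10 -0.0492), median scaling (Mrps30 0.0469, Mrps14 0.0295, Mrps23 0.0236, Mrps36 0.00885, Mrpl11 0.0821, Mrps7 0.137, Mrpl58 0.0742), spike-in scaling (Mrps18a -0.0132, Mrpl12 -0.0477, Mrpl10 -0.0669, Mrps12 -0.0178) and the mean of a gene's probes (Mrps7 0.0513). Without 1 array the ranges were -0.0362 to 0.0518 for Mrpl10, -0.105 to 0.0893 for Mrps7, -0.159 to 0.0333 for Mrpl11, -0.154 to 0.0124 for Mrpl58, -0.00944 to 0.197 for Mrpl57, -0.0248 to 0.148 for Mrps18a and -0.0453 to 0.0991 for Mrpl12. Where 1 array of a group was left, it was assumed to vary like the other group; the cause of these moves was not tested. With the replicate number as a block, 0 genes of the set and 143 of all genes were called; the labels do not say that the numbers pair samples, and same-numbered deviations correlated at 0.138 over all genes and 0.456 over the set.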
